A study of Mus musculus with 18 samples.

Results

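The fatty acid desaturase genes are 8 of the 22298 genes measured in this series: Scd1, Scd2, Scd3, Scd4, Fads1, Fads2, Fads3 and Fads6. They were taken by symbol after the Ensembl identifiers of the files were matched to GENCODE M21, and all 8 were found. Gene expression was measured by RNA-seq in liver, inguinal white fat (iWAT) and epididymal white fat (eWAT) of C57BL/6 mice aged 12 weeks. In each tissue, 3 libraries came from KO mice (Bckdhaf/f;RIP-Cre) and 3 from WT mice (Bckdhaf/f), which makes 18 libraries. All animals thus carried the floxed Bckdha alleles, and the KO mice also carried RIP-Cre. RIP-Cre commonly names a Cre recombinase under the rat insulin promoter, active in pancreatic beta cells and in some neurons, so that liver and fat were not the tissues aimed at. The labels give no group with RIP-Cre and without floxed alleles, and an effect of the transgene and an effect of the deletion cannot be told apart. They do not say which libraries came from the same animal, nor the animals' sex, so p-values reflect only how these libraries vary, which may be technical in part.

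Desaturases add double bonds to fatty acyl chains in the endoplasmic reticulum, with electrons passed on by cytochrome b5 and its reductases. The stearoyl-CoA desaturases (Scd) place the first double bond in saturated acyl-CoA, chiefly in stearate and palmitate, and so make oleate and palmitoleate. Mouse has a cluster of these genes: Scd1 is the main form of fat and lipogenic liver, Scd2 is known from brain and from early development, Scd3 from the sebaceous glands of skin and Scd4 from heart. The Fads genes belong to another family. Fads2 encodes the enzyme of the first step from linoleate and alpha-linolenate towards arachidonate and docosahexaenoate, Fads1 encodes that of a later step, Fads3 acts on sphingoid bases, and the reaction of Fads6 is poorly known.

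Of the 8 genes, 7 lie on chromosome 19 (GRCm38, mm10; GENCODE M21). Scd3 (44203269 to 44244016, plus strand), Scd2 (44293674 to 44306864, plus), Scd4 (44333092 to 44346743, plus) and Scd1 (44394455 to 44407879, minus) follow one another. Fads3 (10041569 to 10060110, plus), Fads2 (10062765 to 10101746, minus) and Fads1 (10182888 to 10196877, plus) form another cluster, in which the annotated ends of Fads3 and Fads2 are 2654 bp apart. Fads6 lies on chromosome 11 (115279622 to 115297663, minus). The promoters of Fads2, Fads3 and Fads6 are shown because Fads2 and Fads6 were high in liver whereas Fads3, the neighbour of Fads2, was high in fat. Each runs from 250 bases before to 50 bases after the RefSeq start on GRCm38.p6, 5′ to 3′ on the gene's strand, at chr19:10101454-10101753 (minus) for Fads2, chr19:10041298-10041597 (plus) for Fads3 and chr11:115297513-115297812 (minus) for Fads6. Capitals mark a match, on either strand, to a GC box (letters GGGCGG) or to a CCAAT box (letters CCAAT).
Fads2: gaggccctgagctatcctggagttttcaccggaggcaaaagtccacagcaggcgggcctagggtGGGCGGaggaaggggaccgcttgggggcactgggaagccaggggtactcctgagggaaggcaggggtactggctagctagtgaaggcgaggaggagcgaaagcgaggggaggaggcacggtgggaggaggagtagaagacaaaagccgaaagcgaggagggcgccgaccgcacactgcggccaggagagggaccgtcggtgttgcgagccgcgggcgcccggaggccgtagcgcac
Fads3: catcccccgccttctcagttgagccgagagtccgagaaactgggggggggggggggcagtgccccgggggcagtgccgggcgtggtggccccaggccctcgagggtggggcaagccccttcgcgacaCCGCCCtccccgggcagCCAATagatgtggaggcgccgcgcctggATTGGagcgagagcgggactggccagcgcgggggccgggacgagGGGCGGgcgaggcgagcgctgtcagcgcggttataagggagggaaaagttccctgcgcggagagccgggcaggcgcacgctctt
Fads6: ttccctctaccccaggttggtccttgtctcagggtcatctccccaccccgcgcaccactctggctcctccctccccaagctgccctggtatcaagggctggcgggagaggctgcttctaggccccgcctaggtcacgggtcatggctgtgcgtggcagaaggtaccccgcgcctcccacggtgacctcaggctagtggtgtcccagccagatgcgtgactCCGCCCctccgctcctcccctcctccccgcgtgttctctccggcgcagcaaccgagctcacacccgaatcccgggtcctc

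The Fads3 promoter held 2 GC boxes and 2 CCAAT boxes, and those of Fads2 and Fads6 each held 1 GC box and no CCAAT box; no matches overlapped. Of the 32851 mouse promoters of the same length in the RefSeq table, 35.7% held the GC box and 37.4% the CCAAT box. The TATA box (TATAAA, in 13.6% of promoters), the sterol regulatory element (TCACNCCAC, in 1.24%) and the canonical E-box (CACGTG, in 7.15%) had no match in these windows, nor in those of Scd3 and Scd4. The GC content was 67.0% for Fads2, 73.0% for Fads3 and 67.3% for Fads6, against a median of 52.7% over all promoters in the table.

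Library totals ran from 18629302 to 25969223 expected counts for liver, 17959394 to 28039742 for iWAT and 16796147 to 24357859 for eWAT. Levels are given below as CPM, the deposited counts scaled to TMM library sizes over all 18 libraries, and as the authors' FPKM where genes are compared with each other. Liver libraries held 135600 to 174900 CPM of the hepatocyte gene Alb. In fat, the adipocyte gene Adipoq stood between 543 and 2801 CPM, with 1 exception: eWAT WT replicate 2 held 12.0 CPM, together with 30820 CPM of the epididymal gene Gpx5. The epididymal gene Crisp1 was at 1074 CPM in eWAT KO replicate 1, 1233 CPM in eWAT KO replicate 3 and 761 CPM in eWAT WT replicate 2, and at 0.775 to 1.49 CPM in the other 3 eWAT libraries. Bckdha itself stood at 330 to 465 CPM in KO and 374 to 445 CPM in WT livers, at 87.5 to 178 CPM in KO and 89.1 to 169 CPM in WT iWAT, and at 78.2 to 113 CPM in KO and 37.1 to 251 CPM in WT eWAT, which is no check of a deletion aimed at beta cells.

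Liver and fat differed in which desaturase transcripts were high. Fads1, Fads2 and Fads6 were higher in liver than in either depot, whereas Scd1, Scd2 and Fads3 were lower in liver than in either. Over all 18 libraries (edgeR quasi-likelihood test, Benjamini-Hochberg adjustment over 15717 genes, threshold 0.05), 3 members were higher and 5 lower in liver than in eWAT, and 3 were higher and 4 lower in liver than in iWAT. Of all genes tested, 28.2% were higher and 42.3% lower in liver than in eWAT, and 27.9% higher and 42.2% lower in liver than in iWAT. The median log2 difference of the 8 members was -3.16 between liver and eWAT, beside -0.37 for all genes, and -2.02 between liver and iWAT, beside -0.43. Without Scd3 and Scd4, which were close to the limit of detection, the median of the other 6 members was -0.61 between liver and eWAT and 0.002 between liver and iWAT. In bulk tissue, fewer cells of a type and less RNA per cell cannot be told apart.

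**Figure D1:**
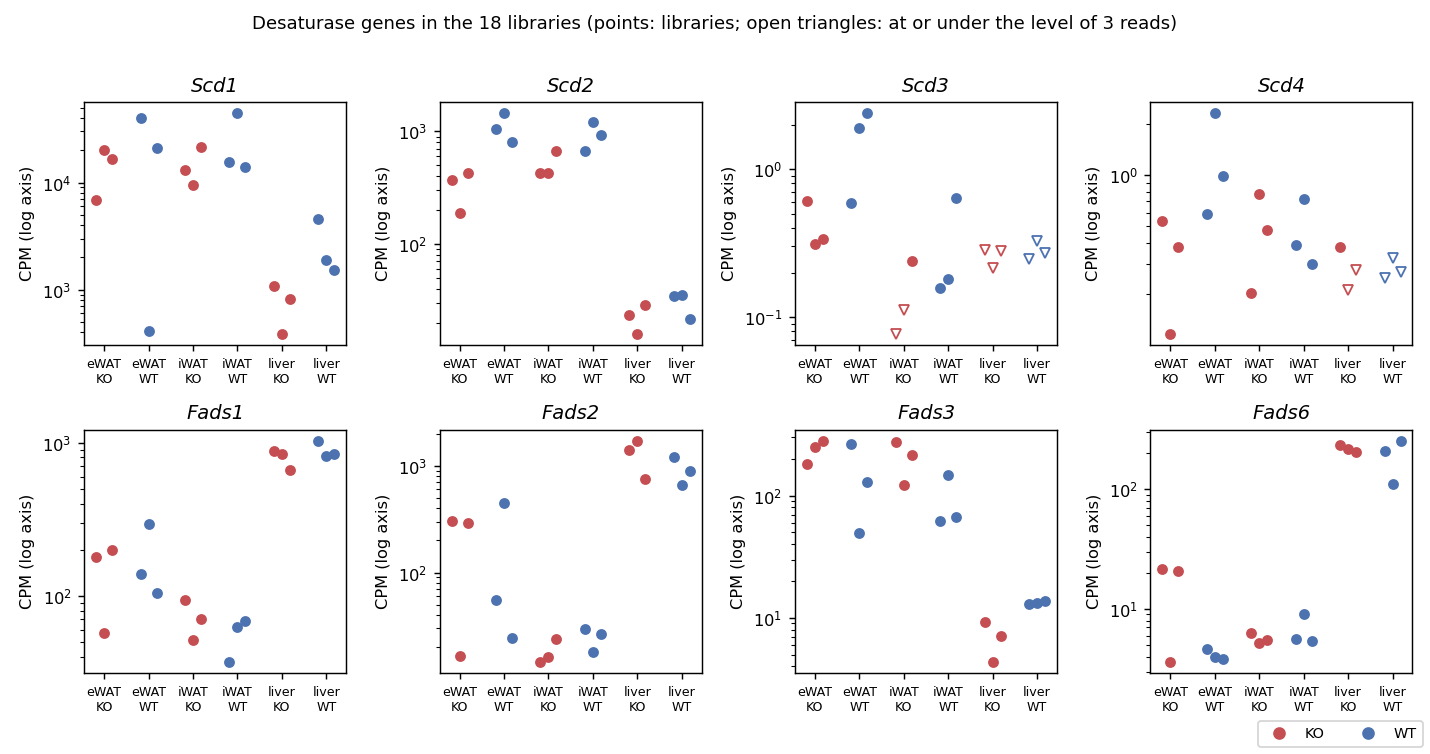
CPM (log axis) of each desaturase gene in each library, with KO libraries in red to the left of WT libraries in blue within each tissue, in replicate order from left to right; open triangles mark libraries at or under the level of 3 reads. Fads1, Fads2 and Fads6 are highest in the liver libraries, Scd1, Scd2 and Fads3 in most fat libraries, and Scd1 in eWAT WT replicate 2 stands at 410 CPM, below the other fat libraries.

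Scd1 was among the most abundant transcripts of fat. It took 1.17% to 5.35% of all expected counts in 11 of the 12 fat libraries, where it ranked from 1 to 3 among all genes, and 0.0583% in eWAT WT replicate 2. In liver it took 0.0208% to 0.242%. The lowest, median and highest Scd1 levels were 383, 1316 and 4535 CPM in liver, 9559, 14800 and 44120 CPM in iWAT, and 410, 18350 and 40280 CPM in eWAT. The log2 difference was -3.73 (SE 0.78, adjusted p = 0.000631) between liver and iWAT and -3.60 (SE 0.78, adjusted p = 0.000846) between liver and eWAT. No liver library overlapped with iWAT, and in eWAT only WT replicate 2 lay within the liver range.

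Scd2 was likewise lower in liver, and no liver library overlapped with a fat library: 15.7, 26.1 and 35.2 CPM (lowest, median, highest) in liver, 425, 665 and 1201 CPM in iWAT and 190, 615 and 1445 CPM in eWAT. Its log2 difference was -4.71 (SE 0.30, adjusted p = 6.77e-09) between liver and iWAT and -4.52 (SE 0.30, adjusted p = 9.84e-09) between liver and eWAT. Unlike Scd1, Scd2 was highest of all in eWAT WT replicate 2, the library with little Adipoq. Scd3 and Scd4 were close to the limit of detection. Scd3 had 0 to 2 expected counts in a liver library, 0 to 17 in an iWAT library and 8 to 58 in an eWAT library, and Scd4 had 0 to 4 in liver, 8 to 24 in iWAT and 3 to 55 in eWAT. Both were called lower in liver than in eWAT (adjusted p = 0.00336 for Scd3 and 0.00742 for Scd4), and Scd4 also than in iWAT (adjusted p = 0.0217), whereas Scd3 did not pass there (adjusted p = 0.150). Their fitted fold changes between liver and fat depend on the prior count, since most liver libraries held 3 reads or fewer, and are not given. Without the 3 eWAT libraries that held abundant Crisp1, Scd4 no longer passed between liver and eWAT (adjusted p = 0.188).

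Among the Fads genes, Fads2 covered the widest range in fat. Its lowest, median and highest levels were 662, 1055 and 1701 CPM in liver, 14.5, 21.03 and 29.8 CPM in iWAT, and 16.6, 174 and 445 CPM in eWAT. Its log2 difference was 5.68 (SE 0.80, adjusted p = 1.89e-05) between liver and iWAT and 2.52 (SE 0.69, adjusted p = 0.00469) between liver and eWAT. Fads1 stood at 660, 845 and 1022 CPM in liver, 36.9, 65.4 and 93.5 CPM in iWAT, and 57.4, 158 and 294 CPM in eWAT, with log2 differences of 3.74 (SE 0.35, adjusted p = 3.77e-07) between liver and iWAT and 2.39 (SE 0.33, adjusted p = 1.78e-05) between liver and eWAT. Fads6 stood at 111, 211 and 251 CPM in liver, 5.199, 5.56 and 9.004 CPM in iWAT, and 3.60, 4.29 and 21.5 CPM in eWAT, with log2 differences of 5.05 (SE 0.39, adjusted p = 4.54e-08) between liver and iWAT and 4.67 (SE 0.38, adjusted p = 8.37e-08) between liver and eWAT. Every liver library held more of these 3 genes than any fat library.

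Fads3 ran the other way: 4.34, 11.1 and 13.7 CPM in liver, 61.7, 135 and 276 CPM in iWAT, and 49.9, 217 and 280 CPM in eWAT. The log2 difference was -3.85 (SE 0.40, adjusted p = 9.33e-07) between liver and iWAT and -4.30 (SE 0.40, adjusted p = 3.66e-07) between liver and eWAT. Fads3 and Fads2 thus differed in opposite directions although they are neighbours on chromosome 19.

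Between the depots, Fads1 and Fads2 were the members called, both lower in iWAT than in eWAT (log2 difference -1.35, SE 0.32, adjusted p = 0.00912 for Fads1 and -3.16, SE 0.71, adjusted p = 0.00678 for Fads2); 13.2% of all genes were higher and 12.2% lower in iWAT. Both differences went with the eWAT libraries that held Crisp1. Without those 3 libraries, an alternative chosen after the data were seen, the log2 difference was -0.40 for Fads1 and -0.29 for Fads2. The 1 KO library then left in eWAT is assumed to vary like the other groups. In WT libraries alone 2 of 14391 genes passed and 0 members. With so few genes called, this fit says little about Fads1 and Fads2. In KO libraries alone 2105 of 14714 genes passed, and of the members Fads2 (log2 difference -3.56, edgeR adjusted p = 0.0305).

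**Figure D2:**
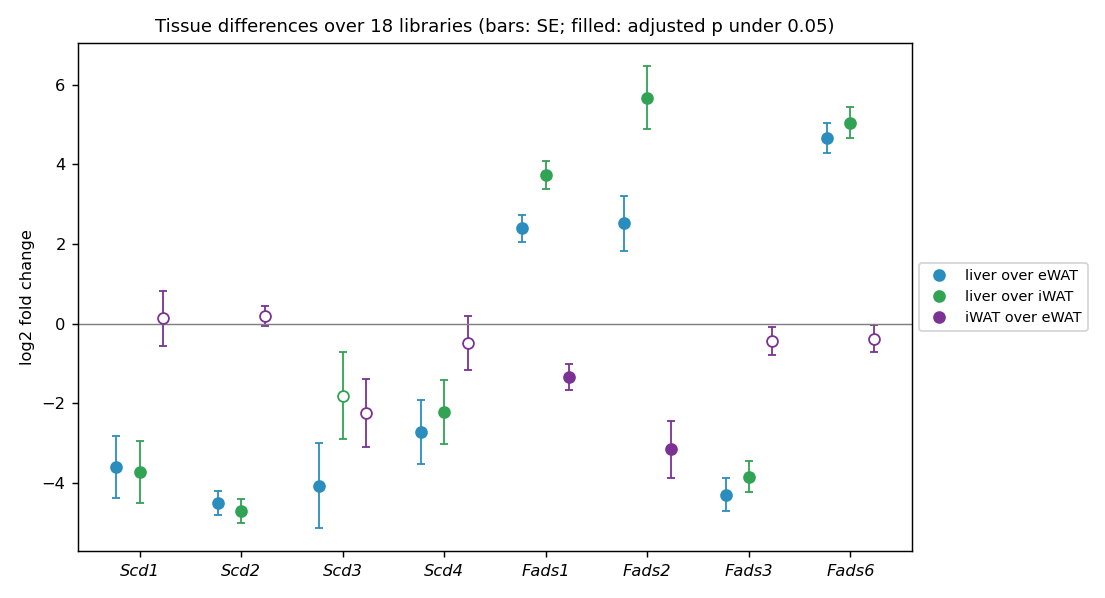
Log2 fold change of each desaturase gene between tissues (vertical axis; liver over eWAT, liver over iWAT, iWAT over eWAT), averaged over KO and WT; bars are SE and filled points have an adjusted p under 0.05. Fads1, Fads2 and Fads6 lie above 0 and Scd1, Scd2 and Fads3 below 0 in both contrasts of liver with fat.

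Per length, Scd1 led in fat, and no single gene led in liver. Median FPKM in liver was 179 for Fads2, 148 for Scd1 and 132 for Fads1, 3 levels whose ranges over the 6 libraries overlapped. Fads6 followed at 23.9 FPKM, then Scd2 at 2.64 and Fads3 at 2.06 FPKM, again with overlapping ranges. In iWAT the order was Scd1 (4170 FPKM), Scd2 (170), Fads3 (54.9), Fads1 (24.2), Fads2 (9.11) and Fads6 (1.58), in which Fads3 overlapped with its neighbours above and below and the other neighbours did not overlap. In eWAT it was Scd1 (4931 FPKM), Scd2 (137), Fads3 (101), Fads2 (83.2) and Fads1 (68.9), each overlapping with its neighbour in that order, then Fads6 (1.17 FPKM). Scd3 and Scd4 had median FPKM under 1 in each tissue.

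**Figure D3:**
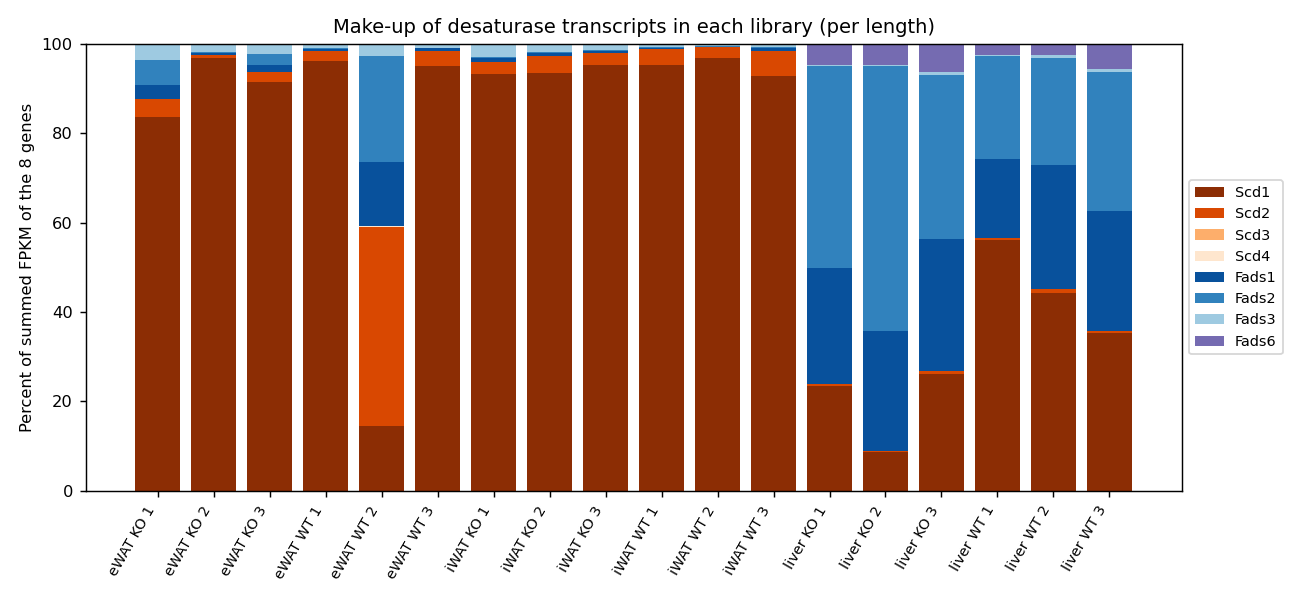
Percent of the summed FPKM of the 8 desaturase genes (vertical axis) that each gene makes up in each library, KO left of WT in each tissue. Scd1 makes up 83.7% to 96.9% in 11 of the 12 fat libraries and 14.5% in eWAT WT replicate 2; in liver it makes up 8.69% to 26.1% in KO and 35.3% to 56.2% in WT libraries.

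KO and WT were compared within each tissue, which asks whether these genes differed in tissues where the labelled Cre is not known to act. No member passed the threshold in any tissue. In liver 0 of 6 members tested passed, where 0.0504% of all 11915 genes did (6 genes); in iWAT 0 of 7 and in eWAT 0 of 8 members passed, where 0.0% of 14226 and 0.0% of 14657 genes did (edgeR). At an unadjusted p under 0.05, there were 2 members (Scd1, Fads3) and 720 genes in liver, 2 members (Scd2, Fads3) and 593 genes in iWAT, and 3 members (Scd2, Scd3, Fads6) and 843 genes in eWAT. DESeq2 called 65 genes in liver, 67 in iWAT and 126 in eWAT, among them Scd1 in liver (log2 fold change -1.77, adjusted p = 0.00738) and Scd2 in eWAT (-1.79, adjusted p = 0.00828). limma-voom called 4 genes in liver and 0 in either depot, none of them a member. In CPM, all KO libraries lay on 1 side of all WT libraries for 2 of 6 members tested in liver. The same held for 1 of 7 members in iWAT and 2 of 8 in eWAT. Of all genes tested, 13.1%, 9.34% and 16.1% had such groups in liver, iWAT and eWAT.

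Scd1 in liver was the member with the lowest p. It stood at 1094, 383 and 825 CPM in the 3 KO livers, against 4535, 1887 and 1537 CPM in the 3 WT livers, so that the groups did not overlap. The means were 768 ± 359 CPM in KO and 2653 ± 1639 CPM in WT livers (SD, n = 3 each), a log2 fold change of -1.77 (SE 0.46, edgeR adjusted p = 0.500). The difference was not past the threshold for all genes. WT replicate 1 was the highest and KO replicate 2 the lowest library: the log2 fold change was -1.15 without WT replicate 1 and -1.44 without KO replicate 2.

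Liver libraries held low levels of Adipoq and Gpx5, both lowest in KO replicate 2. Adipoq was at 8.46, 0.996 and 6.66 CPM in KO livers and at 5.46, 6.49 and 5.06 CPM in WT livers, and Gpx5 at 34.8, 0 and 32.6 CPM in KO and 33.6, 31.4 and 26.6 CPM in WT livers. Over the 11 fat libraries with abundant Adipoq, Scd1 was 5.84 to 28.9 times Adipoq in CPM (median 12.1). At the median ratio, the Adipoq level of each library would go with 102, 12.1 and 80.7 CPM of Scd1 in KO livers and with 66.1, 78.6 and 61.2 CPM in WT livers. At the highest ratio it would go with 244, 28.7 and 192 CPM in KO livers and with 158, 187 and 146 CPM in WT livers. Each of these values is below the Scd1 level measured in the same library. Whether the ratio of fat libraries holds for such low levels in liver was not tested, nor was the part of such reads in the Scd1 values. The summed level of the 8 adipocyte markers ran from 190 to 295 CPM in KO and from 203 to 235 CPM in WT livers, and KO replicate 2 was not the lowest in it (205.0 CPM). Pnpla2 alone made up 148.0 CPM of the sum in KO replicate 2. Adipoq, Plin1, Fabp4, Lep, Cidec and Retn were each lowest in that library, whereas Lipe and Pnpla2 were not. Of the 12 marker lists, 1 did not overlap between the liver groups, the B cell markers at 2.99 to 4.54 CPM in KO and 5.38 to 5.95 CPM in WT livers, and its part in these values was not tested.

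Fads3 was the other member whose liver groups did not overlap in CPM. It stood at 9.22, 4.34 and 7.03 CPM in KO livers against 13.1, 13.1 and 13.7 CPM in WT livers. In FPKM the groups overlapped, with KO replicate 3 at 2.15 and WT replicate 1 at 1.97. The log2 fold change of Fads3 was -0.94 (SE 0.28, edgeR adjusted p = 0.558). At the median fat ratio, which was not tested for liver, the Adipoq of each library would go with 0.124 to 1.05 CPM of Fads3. The polyunsaturate enzymes showed overlapping groups. Fads2 stood at 1397, 1701 and 753 CPM in KO livers and 1217, 662 and 893 CPM in WT livers (log2 fold change 0.50, SE 0.31, adjusted p = 0.836). Fads1 stood at 877, 847 and 660 CPM in KO livers and 1022, 823 and 844 CPM in WT livers (-0.15, SE 0.18, adjusted p = 0.903). Fads6 ran from 205 to 231 CPM in KO and from 111 to 251 CPM in WT livers (0.23, SE 0.26), and Scd2 from 15.7 to 28.8 CPM in KO and from 21.7 to 35.2 CPM in WT livers (-0.41, SE 0.28). Scd3 and Scd4 were too low to be tested in liver.

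The make-up of the liver desaturase transcripts was also compared within libraries, where no scaling between libraries enters. Scd1 made up 23.4%, 8.69% and 26.1% of the summed FPKM of the 8 genes in KO livers and 56.2%, 44.4% and 35.3% in WT livers, without overlap. Fads2 made up 45.2%, 59.2% and 36.7% in KO livers and 23.1%, 23.9% and 31.2% in WT livers, also without overlap. The shares of a library sum to its whole, so a lower share of Scd1 alone raises that of Fads2. The ratio of Fads2 to Fads1 in FPKM, which does not involve Scd1, overlapped, at 1.74, 2.21 and 1.25 in KO livers and 1.31, 0.856 and 1.16 in WT livers. Within the Scd genes alone, Scd1 was 97.2 ± 0.8% in KO and 98.8 ± 0.5% in WT livers (SD, n = 3 each; exact permutation test, two-sided, p = 0.1, the smallest p that 3 against 3 allow).

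**Figure D4:**
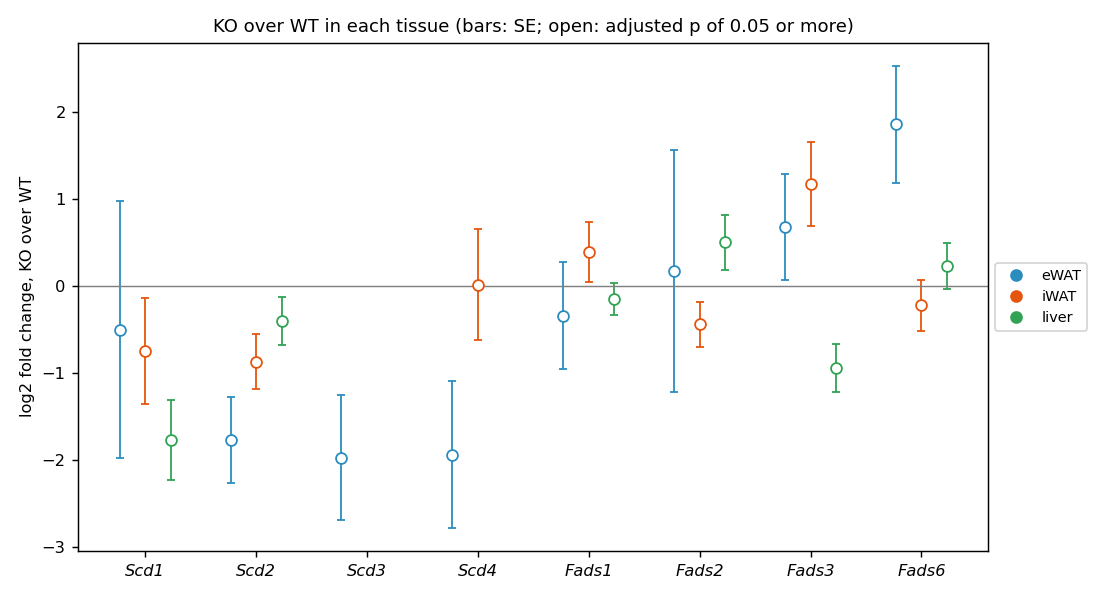
Log2 fold change of each desaturase gene, KO over WT (vertical axis), in eWAT, iWAT and liver; bars are SE, open points have an adjusted p of 0.05 or more, and genes too low to be tested have no point. Every point is open; Scd1 in liver lies at -1.77, Scd2 in eWAT at -1.77 and in iWAT at -0.87.

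In iWAT, Scd2 was the member whose groups did not overlap in CPM. It stood at 425.1, 430 and 665.1 CPM in KO iWAT, against 665.7, 1201 and 925 CPM in WT iWAT. KO replicate 3 and WT replicate 1 thus nearly met. In FPKM the groups overlapped, with KO replicate 3 at 170.6 and WT replicate 1 at 169.5. The log2 fold change was -0.87 (SE 0.32, adjusted p = 0.9998). Fads3 was at 276, 122 and 215 CPM in KO iWAT and 61.7, 149 and 67.3 CPM in WT iWAT, with KO replicate 2 below WT replicate 2 (log2 fold change 1.17, SE 0.48, adjusted p = 0.9998). Scd1 stood at 13010, 9559 and 21230 CPM in KO iWAT and 15670, 44120 and 13920 CPM in WT iWAT, overlapping groups with WT replicate 2 far above the rest (-0.74, SE 0.61). Fads1 (0.39, SE 0.35), Fads2 (-0.44, SE 0.26), Fads6 (-0.22, SE 0.29) and Scd4 (0.01, SE 0.64) had log2 fold changes closer to 0, and Scd3 was too low to be tested. Scd1 made up 96.9 ± 0.6% of the FPKM of the Scd genes in KO and 96.2 ± 1.6% in WT iWAT (SD, n = 3 each; exact permutation p = 0.7). The summed adipocyte markers overlapped as well, at 6652 to 15120 CPM in KO and 4584 to 13500 CPM in WT iWAT. Of the 12 marker lists, 2 did not overlap: the macrophage markers, at 868 to 1384 CPM in KO and 1785 to 2115 CPM in WT iWAT, and the spermatid markers, at 0.184 to 20.9 CPM in KO and 0 to 0.112 CPM in WT iWAT. The spermatid sum was high in KO replicate 1 alone. In KO replicates 2 and 3 (0.184 and 0.319 CPM) it was near the level of 3 reads (0.111 and 0.12 CPM). B cell markers overlapped over a wide range, at 254 to 824 CPM in KO and 2.91 to 898 CPM in WT iWAT. The part of these markers in the Scd2 and Fads3 values was not tested.

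In eWAT, Scd2 was the member with the lowest p. It stood at 368, 190 and 430 CPM in KO eWAT, against 1050, 1445 and 800 CPM in WT eWAT, without overlap. The log2 fold change was -1.77 (SE 0.49, adjusted p = 0.706). Without the 3 libraries with abundant Crisp1 it was -2.28, a value of 1 KO library against 2 WT libraries in which the KO group has no spread of its own. Scd4 did not overlap in CPM either, at 0.537, 0.116 and 0.377 CPM in KO and 0.594, 2.30 and 0.986 CPM in WT libraries. In FPKM it overlapped, at 0.27 in KO replicate 1 and 0.23 in WT replicate 1. Its expected counts were 22, 3 and 10 in KO and 16, 55 and 24 in WT libraries of unequal size (log2 fold change -1.94, SE 0.84). Scd3 was at 0.611, 0.310 and 0.340 CPM in KO and 0.595, 1.89 and 2.38 CPM in WT eWAT (-1.97, SE 0.71), with KO replicate 1 just above WT replicate 1. Both fold changes rest on 3 to 58 expected counts a library.

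Scd1 gave no stable direction in eWAT. It stood at 6940, 20180 and 16520 CPM in KO eWAT and at 40280, 410 and 21200 CPM in WT eWAT, so that the WT libraries enclosed all KO libraries. The log2 fold change was -0.50 (SE 1.48, adjusted p = 0.925), and it was 0.94 with limma-voom and 1.21 on log2(FPKM + 1). Without WT replicate 2 it was -1.06. Scd1 made up 97.5 ± 1.9% of the FPKM of the Scd genes in KO and 73.0 ± 42.0% in WT eWAT (SD, n = 3 each; exact permutation p = 0.4), where WT replicate 2 alone was at 24.5% and the other WT libraries at 97.7% and 96.7%.

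Fads1, Fads2 and Fads6 in eWAT were high in libraries with abundant Crisp1 or smooth muscle transcripts. Fads2 was at 305, 16.6 and 294 CPM in KO eWAT and 55.5, 445 and 24.2 CPM in WT eWAT, and Fads1 at 178, 57.4 and 198 CPM in KO and 138, 294 and 103 CPM in WT eWAT. Both were highest in the 3 libraries with abundant Crisp1 (KO replicates 1 and 3, WT replicate 2). Fads6 was at 21.5, 3.60 and 20.9 CPM in KO eWAT and 4.64, 3.93 and 3.82 CPM in WT eWAT (log2 fold change 1.86, SE 0.67, adjusted p = 0.706). It was high in KO replicates 1 and 3 alone, where the smooth muscle myosin Myh11 was at 971 and 957 CPM, against 34.7 CPM in KO replicate 2 and 57.6 to 186 CPM in WT eWAT. The summed smooth muscle markers ran from 117 to 2233 CPM in KO and from 195 to 553 CPM in WT eWAT. The summed spermatid markers were at 476.5, 0.155 and 1.095 CPM in KO replicates 1, 2 and 3, and ran from 0.616 to 41.1 CPM in WT eWAT. The summed epididymal markers ran from 16.97 to 1256 CPM in KO and from 1.93 to 47270 CPM in WT eWAT, and the summed adipocyte markers from 7290 to 14310 CPM in KO and from 161 to 23780 CPM in WT eWAT. In KO replicates 1 and 3 the epididymal sums (1095 and 1256 CPM) were nearly all Crisp1 (1074 and 1233 CPM). Gpx5 was at 9.06 and 14.0 CPM there, against 10.2 CPM in KO replicate 2 and 21.4 CPM in WT replicate 1. Adam7 was at 1.10 and 3.44 CPM, against 1.86 and 5.13 CPM. Cst8 was at 6.57 CPM in KO replicate 1, above 0.310 and 0.557 CPM in the same 2 libraries. Of the 12 marker lists, 1 did not overlap in eWAT, the skeletal muscle markers at 15.6 to 36.8 CPM in KO and 1.93 to 10.03 CPM in WT libraries, and the part of all these markers in the eWAT values was not tested. Without the 3 libraries with abundant Crisp1, the log2 fold change was -0.23 for Fads6, -1.25 for Fads2 (0.17 with all libraries) and -1.06 for Fads1 (-0.34 with all libraries). These values set KO replicate 2 alone against 2 WT libraries, and for Fads6 both libraries with a high level are among those left out, so they describe the remaining libraries only. Fads3 stood at 183, 251 and 280 CPM in KO eWAT and 264, 49.9 and 130 CPM in WT eWAT, lowest in WT replicate 2 (0.68, SE 0.61).

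**Figure D5:**
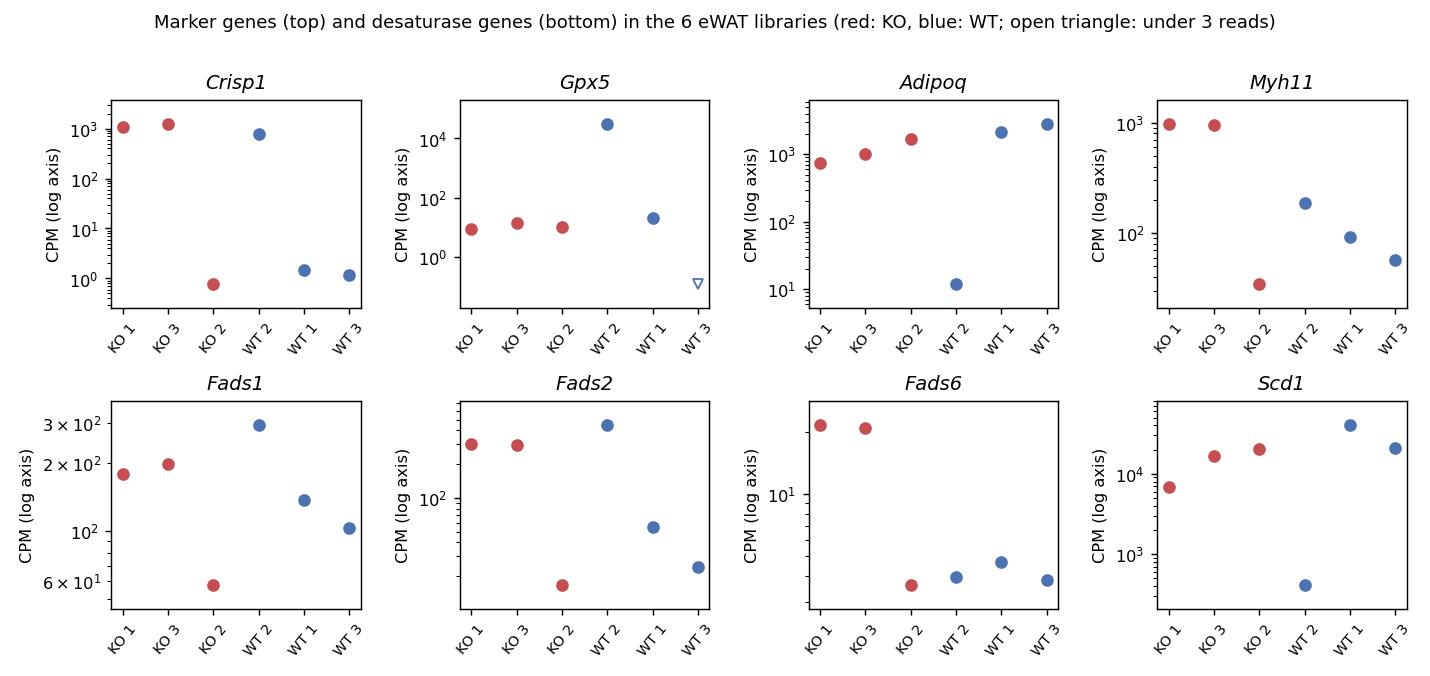
CPM (log axis) of 4 marker genes (top: epididymal Crisp1 and Gpx5, adipocyte Adipoq, smooth muscle Myh11) and of Fads1, Fads2, Fads6 and Scd1 (bottom) in the eWAT libraries, KO in red left of WT in blue; the open triangle is a library under 3 reads. The 3 libraries with abundant Crisp1 (KO 1, KO 3, WT 2) are those with the highest Fads1 and Fads2, Fads6 is high in KO 1 and KO 3, and Scd1 and Adipoq are lowest in WT 2.

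Whether the KO to WT difference itself differed between tissues was tested as a difference of log2 fold changes, with 0 of 8 members and 0.0% of 15717 genes past the threshold in each of the 3 comparisons. At an unadjusted p under 0.05 there were 3 members (Scd2, Fads3, Fads6) and 1000 genes for liver minus eWAT, 1 member (Fads3) and 413 genes for liver minus iWAT, and 1 member (Fads6) and 914 genes for iWAT minus eWAT. DESeq2 called 46, 12 and 46 genes in the same order, and limma-voom 0, with no member among them. The lowest p belonged to Fads6, whose log2 fold change was lower by 2.14 in iWAT than in eWAT (difference -2.14, SE 0.67, adjusted p = 0.778); without eWAT KO replicate 2 it passed (-2.54, adjusted p = 0.0338), and without the 3 libraries with abundant Crisp1, among them both with high Fads6, it was -0.04. Fads3 differed by -2.10 (SE 0.72, adjusted p = 0.9999) between liver and iWAT. Scd2 differed by 1.31 (SE 0.52, adjusted p = 0.774) between liver and eWAT.

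The genes that supply, elongate and use the same acyl chains were examined as 6 lists. List genes named below were chosen by low p between KO and WT in these same libraries. Groups without overlap in them are therefore no separate support. Such groups were seen for 13.1%, 9.34% and 16.1% of all genes tested in liver, iWAT and eWAT. At an unadjusted p under 0.05 (edgeR) there were 10 of 56 tested list genes in liver, 7 of 58 in iWAT and 10 of 58 in eWAT. Of all genes tested, 6.04%, 4.17% and 5.75% had such a p in these tissues. The lists were themselves chosen with earlier results of these data known. Neither these counts nor the directions within the lists below are therefore separate support. After adjustment, 0 list genes passed in any tissue. limma-voom also called 0, and DESeq2 called Acsl1 and Elovl3 in liver, Elovl6 in iWAT, and Acly, Acsl3, Cyb5b, Elovl6, Mid1ip1 and Tecr in eWAT. In the list of saturated fatty acid supply, 9 of 11 tested genes had log2 fold changes below 0 in liver, 9 of 11 in iWAT and 11 of 11 in eWAT, with median log2 fold changes of -0.20, -0.76 and -1.74 beside -0.002, 0.01 and -0.02 for all genes. These medians of all genes also stand beside the counts of the lists that follow. Acly, which makes cytosolic acetyl-CoA from citrate, stood at 1563 ± 558 CPM in KO and 3920 ± 1640 CPM in WT iWAT, and at 453 ± 180 CPM in KO and 3321 ± 1890 CPM in WT eWAT (SD, n = 3 each; log2 fold changes -1.30 and -2.88). Its groups did not overlap in either depot. In liver, Acsl1, an acyl-CoA synthetase for long chains, was at 1685 ± 421 CPM in KO and 808 ± 189 CPM in WT libraries (log2 fold change 1.08, SE 0.24, adjusted p = 0.427), without overlap, and Acss2, which makes acetyl-CoA from acetate, at 263 ± 46 CPM in KO and 357 ± 25 CPM in WT livers (-0.42).

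In the elongation list, 5 of 11 tested genes were below 0 in liver, 9 of 12 in iWAT and 10 of 12 in eWAT, with medians of 0.15, -0.27 and -0.75. Elovl6, which lengthens palmitate to stearate, the substrate of Scd enzymes, stood below WT in all 3 tissues without overlap. It was at 51.7, 61.8 and 104 CPM in KO livers against 115, 248 and 108 CPM in WT livers (log2 fold change -1.09, SE 0.38, adjusted p = 0.654). In iWAT it was at 87.7, 54.1 and 105 CPM in KO against 218, 249 and 465 CPM in WT libraries (-1.90, SE 0.41, adjusted p = 0.9998). In eWAT it was at 18.7, 8.79 and 21.9 CPM in KO against 276, 198 and 561 CPM in WT libraries (-4.41, SE 0.61, adjusted p = 0.706). Elovl2 and Elovl3, which lengthen polyunsaturated and very-long-chain saturated acyl chains, were at 1128 ± 407 and 52.6 ± 16.3 CPM in KO livers and at 692 ± 27 and 21.4 ± 7.6 CPM in WT livers (log2 fold changes 0.73 and 1.32). Tecr, the last enzyme of the elongation cycle, was at 71.2 ± 11.8 CPM in KO and 167 ± 30 CPM in WT eWAT (-1.26), and the dehydratase Hacd3 at 50.1 ± 7.2 CPM in KO and 80.5 ± 14.5 CPM in WT eWAT (-0.71).

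Of the electron donors, 3 of 5 tested genes were below 0 in liver, 4 of 5 in iWAT and 4 of 6 in eWAT (medians -0.01, -0.12 and -0.56). Cyb5r3, a cytochrome b5 reductase, was at 583 ± 56 CPM in KO and 772 ± 51 CPM in WT livers (log2 fold change -0.38), and Cyb5b, a cytochrome b5, at 226 ± 47 CPM in KO and 497 ± 64 CPM in WT eWAT (-1.16); neither overlapped. Of the regulators, 7 of 17 were below 0 in liver, 8 of 17 in iWAT and 9 of 17 in eWAT (medians 0.05, 0.03 and -0.06). Srebf1, which encodes the lipogenic factor SREBP-1, overlapped between groups in every tissue, at 433 ± 155 CPM in KO and 651 ± 143 CPM in WT livers, 480 ± 132 CPM in KO and 901 ± 541 CPM in WT iWAT, and 263 ± 65 CPM in KO and 757 ± 528 CPM in WT eWAT. Thrsp, a lipogenic protein of liver and fat, was at 322 ± 176 CPM in KO and 789 ± 438 CPM in WT livers (-1.28). Its groups overlapped, with KO replicate 3 at 497.8 CPM and WT replicate 3 at 493.4 CPM. Mid1ip1, which activates acetyl-CoA carboxylase, was at 70.7 ± 23.7 CPM in KO and 240 ± 70 CPM in WT eWAT (-1.79). Insig1, which retains SREBP in the endoplasmic reticulum, was at 459 ± 79 CPM in KO and 745 ± 203 CPM in WT livers (-0.67), at 237 ± 89 CPM in KO and 101 ± 30 CPM in WT iWAT (1.27), and at 74.4 ± 16.1 CPM in KO and 235 ± 130 CPM in WT eWAT (-1.67).

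Of the users of acyl-CoA, 6 of 9 tested genes were below 0 in liver, 7 of 9 in iWAT and 7 of 8 in eWAT (medians -0.08, -0.25 and -0.52). Agpat2, an enzyme of triglyceride synthesis, was at 236 ± 38 CPM in KO and 388 ± 44 CPM in WT livers (log2 fold change -0.70, SE 0.18, adjusted p = 0.500), without overlap. The other lipid desaturases, which act on sphingolipids, sterols and plasmalogens, had 1 of 3 tested genes below 0 in liver, 1 of 4 in iWAT and 3 of 4 in eWAT (medians 0.18, 0.10 and -0.66). The adipocyte markers in eWAT and the macrophage markers in iWAT, given above, also ran over different ranges in KO and WT libraries, and their part in these lists was not tested.

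After the tissue means were subtracted, each member was set beside all 11758 genes whose mean log2 CPM was 1 or more, over 17 libraries without eWAT WT replicate 2; libraries share tissue and depth, and no test applies. Scd2 ran closest to Fasn (Pearson r = 0.877), the fatty acid synthase, then Elovl6 (0.866) and Psph (0.855), a serine synthesis enzyme. Scd1 ran closest to Pla2g15 (0.875), Nfil3 (0.859) and Tspan4 (0.844), and its r with Scd2 was 0.611. With eWAT WT replicate 2 included, the r of Scd1 with Scd2 was -0.084, so that this value rests on which libraries are used. Scd2 then ran closest to Elovl6 (0.855), Cadps2 (0.845) and Isyna1 (0.84). Among the genes closest to Fads2 were Chrna2 (0.934) and Actg2 (0.922), and Fads6 ran closest to Sorbs2 (0.949), Mylk (0.948) and Slc39a8 (0.937). Of these, Actg2 and Mylk belong to smooth muscle. Among the eWAT libraries used here, Fads2, Fads6 and the smooth muscle gene Myh11 were each high in KO replicates 1 and 3 alone. How far these likenesses rest on those libraries was not tested. Fads2 and Fads6 had r = 0.872 with each other. With eWAT WT replicate 2 included, this r was 0.578, and Fads6 ran closest to Slco2a1 (0.937), Gata2 (0.912) and Fam129a (0.908). Actg2 stayed among the genes closest to Fads2 (0.941). Fads1 ran closest to C7 (0.867), Vmac (0.867) and Abhd14b (0.863), and among the genes closest to Fads3 were Chst1 (0.874) and Slc22a3 (0.871). Fads3 and its neighbour Fads2 had r = -0.127, and -0.38 with eWAT WT replicate 2 included.

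The Scd genes share short stretches of sequence, and reads from these can be split between genes by an estimated count. Of the distinct 50-base words of Scd1 transcripts, 2.97% also occur in Scd2 and 3.42% in Scd3, and 4.77% of those of Scd3 occur in Scd1; of those of Fads2, 0.152% occur in Fads3. The deposited Scd1 count was not whole in 1 of 6 liver, 6 of 6 iWAT and 6 of 6 eWAT libraries, that of Scd3 in 6 of 18 libraries and that of Scd4 in 0 of 18. With Scd1 at 410 to 44120 CPM and Scd3 under 3 CPM in fat, the Scd3 values are uncertain.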

How the data were processed

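RNA-seq was done on polyadenylated RNA of 18 libraries (3 tissues, KO and WT, 3 libraries each). The tools listed in the submitters' processing notes are RSEM, StringTie (1.3.1), HISAT2, Bowtie2 (2.2.8), fastp (0.18.0), edgeR and DESeq2, on build mm10. Their roles, the annotation release and whether the kit marks strand are not given in the sources used here; antisense reads can therefore not be told apart. The authors deposited expected counts, estimates that need not be whole (8.57% of values were at least 0.01 from a whole number), and FPKM values, scaled by length and library size.

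Identifiers were matched to GENCODE M21 (22255 of 22298). Expected counts were rounded, filtered with filterByExpr (minimum count 10, minimum total 15), scaled by TMM and tested with edgeR 4.0.16 (glmQLFit robust, glmQLFTest) in R 4.3.3, in 6 libraries per tissue for KO against WT and in 1 fit of 18 libraries for tissues and for differences of genotype effects; p-values were adjusted by Benjamini-Hochberg over all genes tested, with a threshold of 0.05. SE is the absolute log2 fold change over the square root of F. Shares of FPKM were compared by exact permutation. Alternatives were DESeq2 1.42.0, limma-voom (limma 3.58.1), limma on log2(FPKM + pseudocount of 1 or 0.1), other scalings and filters, a replicate block and leaving out libraries. The procedures were tested on simulated data.

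The members and the gene lists were chosen with earlier results of these data known, and the omission of 3 eWAT libraries was chosen after seeing the data. Named genes are the members, up to 4 genes per list and tissue in order of p, of which a part is described, and the 3 genes most like each member whose mean log2 CPM was 1 or more. Some genes that this rule names are not reported here. Of 18 replicate pairs none was identical (chi-square per degree of freedom 33.3 to 1033). CPM levels cover all 18 libraries in 1 scaling, while fold changes come from each fit's own scaling. Counting error at these depths is small beside the spread between libraries in most groups. It is not small for Scd3 and Scd4, where 3 reads equal 0.0733 to 0.325 CPM. Nor is it small in some groups with low counts and little spread. Examples are Fads3 in WT livers (121 to 158 expected counts, 13.3 ± 0.4 CPM) and Fads6 in WT eWAT (93 to 125 expected counts, 4.13 ± 0.45 CPM).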

Additional observations from a re-analysis of the deposited data

Results flagged for a closer look

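Of the genes named beside the members, 3 had KO libraries all on one side of the WT libraries in 1 tissue and all on the other side in another. They had been named for a low p in these same libraries, and the tests of the difference did not pass. Insig1 had a log2 fold change of 1.27 in iWAT, -1.67 in eWAT and -0.67 in liver (iWAT minus eWAT 2.89, SE 0.58, edgeR adjusted p = 0.397; liver minus iWAT -1.93, SE 0.58, adjusted p = 0.9999). Elovl3 had 1.32 in liver and -1.86 in iWAT (liver minus iWAT 3.17, SE 1.42, edgeR adjusted p = 0.9999). Hacd3 had 0.26 in liver and -0.71 in eWAT (liver minus eWAT 0.92, SE 0.26, edgeR adjusted p = 0.709).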

How the results depend on the processing

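Of the values for single members, 1221 under the alternatives kept their direction and side of the threshold, 56 turned direction, 18 no longer passed and 10 newly passed. No member's KO to WT difference passed under the other scalings, limma or no filter. Members called were 1 in liver (Scd1) and 1 in eWAT (Scd2) with DESeq2. Fits with the replicate number as a block called 1 member in liver (Scd1, -1.73, adjusted p = 0.00735); samples with the same number did not deviate together (9 KO with WT pairs, correlation -0.724 to 0.176, 2 over 0.1; 18 pairs between tissues, -0.275 to 0.213). All genes called in liver were 39 under the block and 65 with DESeq2, and in eWAT 126 with DESeq2. Without the eWAT libraries with abundant Crisp1, 1 KO library is left in eWAT and is assumed to vary like the WT group. Between iWAT and eWAT, 0 members were called in WT libraries alone, where 2 of 14391 genes passed. In KO libraries alone 1 member was called, where 2105 of 14714 genes passed. In the genotype effect iWAT minus eWAT, members called were 0 to 1 when each library was left out. The share of Scd1 in iWAT, KO minus WT, was 0.723 percentage points of the Scd genes, -0.971 of all 8 genes and -0.135 to 1.47 without each library; in liver it was -1.67 and, of all 8 genes, -25.9.

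Directions turned for these log2 values, and the cause was not tested. KO against WT in eWAT: Scd1 0.94 with voom, 1.21 on log2(FPKM + 1), 1.22 on log2(FPKM + 0.1), 1.21 with mean FPKM of at least 1 and 0.24 with the block. Without the libraries with abundant Crisp1, Fads2 was -1.25 and Fads6 -0.23 there. In iWAT, Scd4 was -0.0022 with upper quartile scaling, -0.13 with voom and -0.029 with the block. In iWAT minus eWAT, Scd3 was -0.77 with voom and -0.23 with the block, and Fads2 0.79 without the libraries with abundant Crisp1. In liver minus eWAT, Fads2 was -0.10 with the block and Fads6 0.45 without the libraries with abundant Crisp1. Between iWAT and eWAT, Scd1 was -0.057 in KO alone, Scd2 -0.28 in WT alone, Scd4 0.39 in KO alone and Fads6 0.66 in WT alone. Without the libraries with abundant Crisp1, Scd1 was -0.40, Scd4 0.62 and Fads6 0.64 between these depots.

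Leaving out each library gave, in eWAT, -1.06 to 0.42 for Scd1, -0.69 to 0.29 for Fads1 and -0.28 to 2.40 for Fads2; in iWAT -0.47 to 0.47 for Scd4 and -0.34 to 0.056 for Fads6; in liver -0.032 to 0.48 for Fads6. For iWAT minus eWAT it gave -1.15 to 0.51 for Scd1, -1.90 to 1.08 for Scd3 and -0.20 to 1.03 for Fads3; for liver minus eWAT -1.83 to 4.64 for Scd3, -0.36 to 0.53 for Fads1 and -1.81 to 0.81 for Fads2; for liver minus iWAT -1.94 to 4.53 for Scd3 and -0.54 to 1.80 for Scd4; and between iWAT and eWAT -0.24 to 0.59 for Scd1. FPKM moved the median of all genes in eWAT to 0.20 to 0.36, from -0.02. Upper quartile scaling moved it to -0.63 between liver and eWAT and -0.59 between liver and iWAT; called genes that were higher in liver then made up 31.7% and 34.6%.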
